A study of Mus musculus with 1 sample.

Results

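The cells described here are 200 alveolar macrophages (AMs, the resident phagocytes of the air side of the lung) with high levels of immediate-early genes and no count of 4 inflammatory genes, among 2055 AMs of a single library. To choose them, the 1257 cells with 0 unique molecular identifiers (UMIs, each of which stands for a captured transcript) of Tnf, Cxcl1, Cxcl3 and Il1a were kept. The kept cells were ranked by the mean natural log value of Fos, Jun, Junb, Ier2, Dusp1, Nr4a1, Egr1 and Atf3, and the highest 200 were taken. They are called IE-high AMs below and are compared with the other 1057 kept cells. The choice used measured values, so the 8 scoring genes and the 4 genes set to 0 are described and are not results.

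The cells came from the lungs of 1 Hdac3fl/fl mouse that carried no Cre, which the labels call wild type, on a FVB/NJ background backcrossed to C57BL/6. The labels give an age of 8-12 weeks, whereas the methods of the study give 6-18 weeks. Lungs were digested with collagenase, CD45+CD11c+SiglecF+ cells were sorted, and RNA was measured by 10x Genomics 3' sequencing. All cells were digested and sorted alike, so transcripts made in the lung and those made during isolation cannot be told apart. With 1 library there is no replicate, so no test and no p-value is given, and the 95% intervals cover counting error only and leave out the spread between mice.

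Immediate-early genes are transcribed within minutes of a signal without the need for new protein. Most are switched on through MAP kinases and the serum response factor, and they encode transcription factors such as AP-1 (Fos and Jun proteins), Egr and Nr4a, together with feedback regulators such as Dusp1, which inactivates MAP kinases. AMs are fixed in their airspace identity by PPAR-gamma and hold low levels of inflammatory transcripts at rest.

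The score, the mean log value of the 8 scoring genes, ran from 1.45 to 2.49 in IE-high AMs (median 1.65) and from 0 to 1.45 in the other kept cells (median 0.940). The boundary was not a gap, since the last 5 cells inside it scored 1.45 each after rounding and the first 5 outside it scored between 1.44 and 1.45. All 8 scoring genes had a UMI in 15 of 200 IE-high AMs (7.50%) and in 2 of 1057 other kept cells (0.189%), and the median cell had a UMI of 6 and of 4 of them. Fos was at 13.4 UMIs per 10000 in IE-high AMs and 6.54 in the other kept cells, Dusp1 at 13.5 and 6.32, and Egr1 at 3.73 and 0.638. When the cells were ranked by the other 7 scoring genes, the gene left out remained higher in the 200 cells at the top of each ranking, from 1.33-fold for Ier2 to 2.64-fold for Egr1, and 162 to 173 of the 200 cells were in common with the main choice. The cells were also ranked on a random part of their UMIs that held a mean of 50% of them. Of the 200, 140 were chosen again, so membership depended in part on counting. Such a part holds fewer UMIs than the main choice used, and the ranks of the cells that dropped out were not examined.

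**Figure D1:**
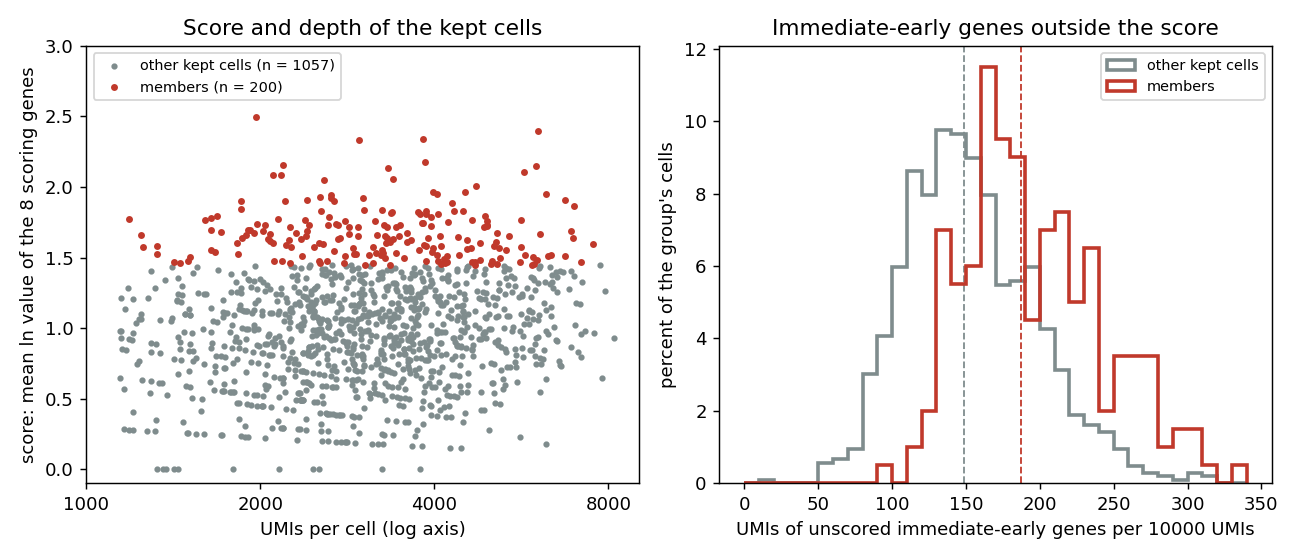
Left, the score (mean natural log value of the 8 scoring genes) of each of the 1257 kept cells against its UMIs on a log axis, with IE-high AMs (members, n = 200) in red and other kept cells (n = 1057) in grey. Members (scores of 1.45 and above) held from 1186 to 7529 UMIs. Right, percent of each group's cells by the UMIs of 55 immediate-early genes outside the score per 10000 UMIs of the cell, with dashed lines at the medians of 187 and 149.

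IE-high AMs were slightly deeper than the cells they are compared with. They held a median of 3306 UMIs (range 1186-7529) and 1482 genes per cell, against 2998 UMIs and 1388 genes in the other kept cells. Mitochondrial genes took a median of 3.32% and 3.23% of the UMIs, and more than 5% of them in 39 of 200 (19.5%) and 217 of 1057 cells (20.5%). A count of 0 does not show that a cell lacked a transcript: in an IE-high AM of median depth, 3 UMIs correspond to 9.07 per 10000. Shares of cells with a UMI are therefore given also after thinning to 2000 UMIs per cell, which left 173 IE-high AMs and 868 other kept cells, and the library holds no cell type that lacks these genes and could measure the level of free RNA.

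The cells had the transcripts of AMs. Of 27 AM identity genes, 25 were measured with at least 200 UMIs in the kept cells, and all 25 had ratios of the level in IE-high AMs to that in other kept cells between 0.824 and 1.23. Chil3, a secreted chitinase-like lectin, was detected in 100% of IE-high AMs and stood at 124 UMIs per 10000 against 137 in the other kept cells. Pparg, the nuclear receptor that sets AM identity, stood at 1.12 and 1.08. Summed over the list, identity genes made up 376 and 400 UMIs per 10000 (ratio 0.939, 95% interval 0.926-0.951). Markers of other cells summed to 3.53 UMIs per 10000 in IE-high AMs and 3.43 in the other kept cells for 9 epithelial genes, and to 0.484 and 0.476 for 2 neutrophil genes. For 3 dendritic cell genes the sums were 0.0285 and 0.0667 (2 and 23 UMIs), and for 5 genes of monocytes and interstitial macrophages 0.0854 and 0.145 (6 and 50 UMIs). The 3 B and plasma cell genes stood at 0.128 and 2.83, where a single other kept cell held 940 of the 974 UMIs as Jchain. No UMI of the 1 listed T cell marker was found in IE-high AMs, and 5 in the other kept cells.

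The word chemokine-negative holds for the genes that set it and not for chemokines as a class. Ccl3 (MIP-1 alpha, a chemokine for monocytes and lymphocytes) had a UMI in 106 of 200 IE-high AMs (53.0%, exact 95% interval 45.8-60.1%) and Cxcl2 (MIP-2, which attracts neutrophils) in 139 (69.5%, interval 62.6-75.8%), and 80 cells held both. They are for this reason named by their immediate-early genes only.

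Most genes differed little in level between IE-high AMs and other kept cells. Over the 2867 genes outside the rule with at least 200 UMIs in the kept cells, the median log2 ratio was 0.00 and its quartiles were -0.13 and 0.15. A ratio of at least 1.5 was found for 52 genes (1.81% of those measured) and a ratio of 1/1.5 or less for 30 (1.05%). The 15 highest ratios belonged to Hspa1a, Ccl3, Hspa1b, Midn, Cxcl2, Nr4a2, Hcar2, Fosb, Gdf15, Plk3, Prdm1, Zfp36, Msl1, Nr4a3 and Btg2. The genes of these groups are taken in turn.

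Immediate-early transcription factors outside the score were higher together. Of 19 measured, 18 had a ratio above 1, 6 were at least 1.5-fold higher, and none was at least 1.5-fold lower, with a median log2 ratio of 0.47 against 0.00 over all genes measured. Nr4a2, an orphan nuclear receptor of the same family as the scoring gene Nr4a1, had 298 UMIs in IE-high AMs, or 4.24 per 10000, against 2.35 in the other kept cells (1.81-fold, 95% interval 1.58-2.07). A UMI of Nr4a2 was found in 62.5% of IE-high AMs and 40.8% of the other kept cells, and in 52.0% and 30.4% of them at equal depth. The single highest cell held 10 UMIs in either group, so the groups overlapped from the lowest to the highest value. Nr4a3, the last member of the family, was 1.71-fold higher (1.45-2.01).

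Fosb, which forms AP-1 with Jun proteins, stood at 4.84 and 2.72 UMIs per 10000 (1.78-fold, 1.56-2.01) and was detected in 57.8% and 36.9% of cells at equal depth. The other AP-1 genes differed less, with 1.23-fold for Fosl2 and 1.20-fold for Jund. Egr2, a zinc finger factor related to Egr1, was 1.65-fold higher (1.39-1.95). The small Maf factors did not move alike, with Maff at 1.55-fold (1.28-1.87), Mafk at 1.51-fold (1.10-2.04) and Mafg at 0.902-fold (0.624-1.27). Cebpb, a factor that macrophages hold at all times, was the most abundant gene of the list at 33.1 and 28.8 UMIs per 10000 and differed by 1.15-fold (1.10-1.20). Klf4, Klf6, Klf10 and Id2 had ratios between 1.06 and 1.16.

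The immediate-early genes that do not encode such factors showed the same direction. All 19 measured had a ratio above 1 and 7 were at least 1.5-fold higher, with a median log2 ratio of 0.31. Zfp36 (tristetraprolin, which binds AU-rich sequences and directs cytokine mRNAs to decay) had 376 UMIs in IE-high AMs, or 5.35 per 10000, against 3.11 (1.72-fold, 1.53-1.94). It was detected in 80.5% of IE-high AMs and 56.1% of the other kept cells, and in 59.0% and 43.9% at equal depth. Btg2, which promotes removal of poly(A) tails, stood at 5.59 and 3.3 (1.69-fold, 1.51-1.90). Plk3, a polo-like kinase, was 1.75-fold higher (1.41-2.16), Trib1, a pseudokinase, 1.69-fold (1.40-2.04), and Rhob, a small GTPase, 1.68-fold (1.43-1.95). Phlda1 and Rgs1, a regulator of G protein signalling, lay close to the limit at 1.56-fold and 1.51-fold. The abundant members Plaur, Btg1, Sgk1 and Mcl1 differed by 1.09-fold to 1.17-fold, and Gadd45g had the lowest ratio, 1.03.

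Counted per cell, the 55 immediate-early genes outside the score that the library lists made up a median of 187 of 10000 UMIs in IE-high AMs (lowest 91.8, highest 338) and 149 in the other kept cells (lowest 17.4, highest 316). The groups overlapped widely. Of the other kept cells 21.9% lay above the median of the IE-high AMs, and of the IE-high AMs 84.5% lay above the median of the other kept cells.

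**Figure D2:**
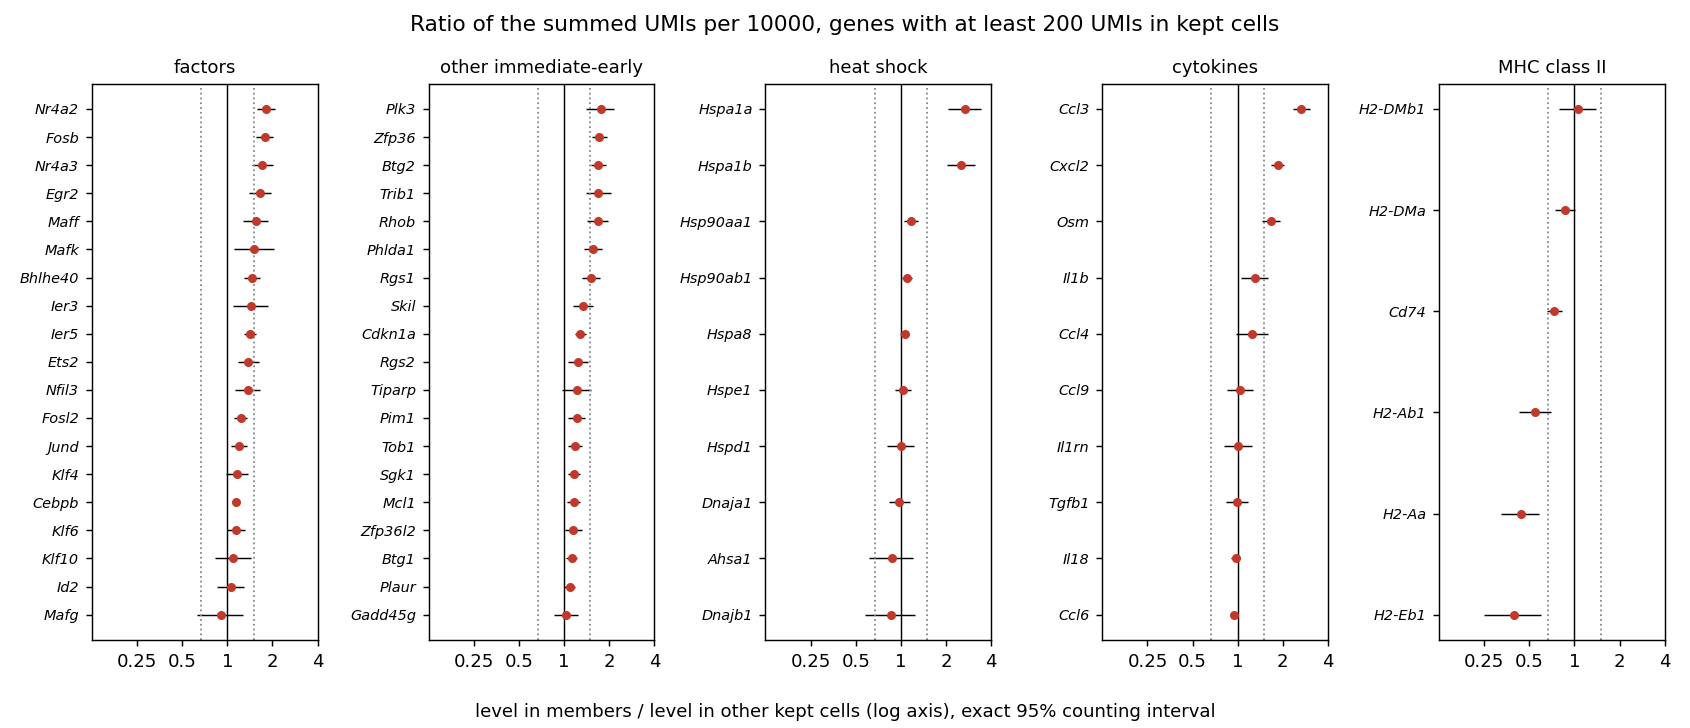
Ratio of the summed level (UMIs per 10000) in IE-high AMs to that in the other kept cells, on a log axis with exact 95% counting intervals, for the genes of 5 lists with at least 200 UMIs in the kept cells. The solid line marks equal levels and the dotted lines a 1.5-fold difference. Nearly all immediate-early genes lie to the right of 1, Hspa1a and Hspa1b stand apart from the other heat shock genes, and 3 cytokine genes and 3 MHC class II genes lie beyond the dotted lines.

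The upstream kinases of this pathway did not shift together, and few of its feedback genes were measured. None of 13 measured genes for MAP kinases, their activators, and serum response and CREB factors was past 1.5-fold (ratios from 0.726 to 1.43, median log2 ratio 0.01). Among MAP kinase feedback genes outside the score only 3 were measured, all with ratios above 1 (median log2 ratio 0.49). Rasgef1b, an exchange factor of Rap proteins, was 1.53-fold higher (1.26-1.84). Summed over the 14 feedback genes that the library lists, the ratio was 1.30 (1.20-1.42).

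Along the range of the score the levels of several immediate-early genes were graded, and those of others were uneven. The kept cells were divided into 10 bins of 125 or 126 cells by score, of which the highest holds 126 IE-high AMs and the next 74 with 52 other kept cells. Nr4a2 was at 4.76 UMIs per 10000 in the highest bin, 3.75 in the next, 3.20 in the one after it and 0.951 in the lowest. Zfp36 went from 5.89 to 1.93, Btg2 from 5.98 to 1.67 and Fosb from 5.42 to 1.79 between the highest and the lowest bin. Plk3 was uneven, at 1.74 in the highest bin, 0.781 in the fourth, 1.2 in the sixth and 0.865 in the lowest. Egr2 was at 2.44 in the highest bin and 2.83 in the next. Ccl3 was at 4.78 and 0.663, with 1.45 in the fifth bin from the top and 2.46 in the sixth. Hspa1a and Hspa1b together were at 3.59 in the highest bin, 1.93 and 2.15 in those that follow and 0.692 in the lowest. The genes shown in these bins were chosen after their ratios were seen.

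**Figure D3:**
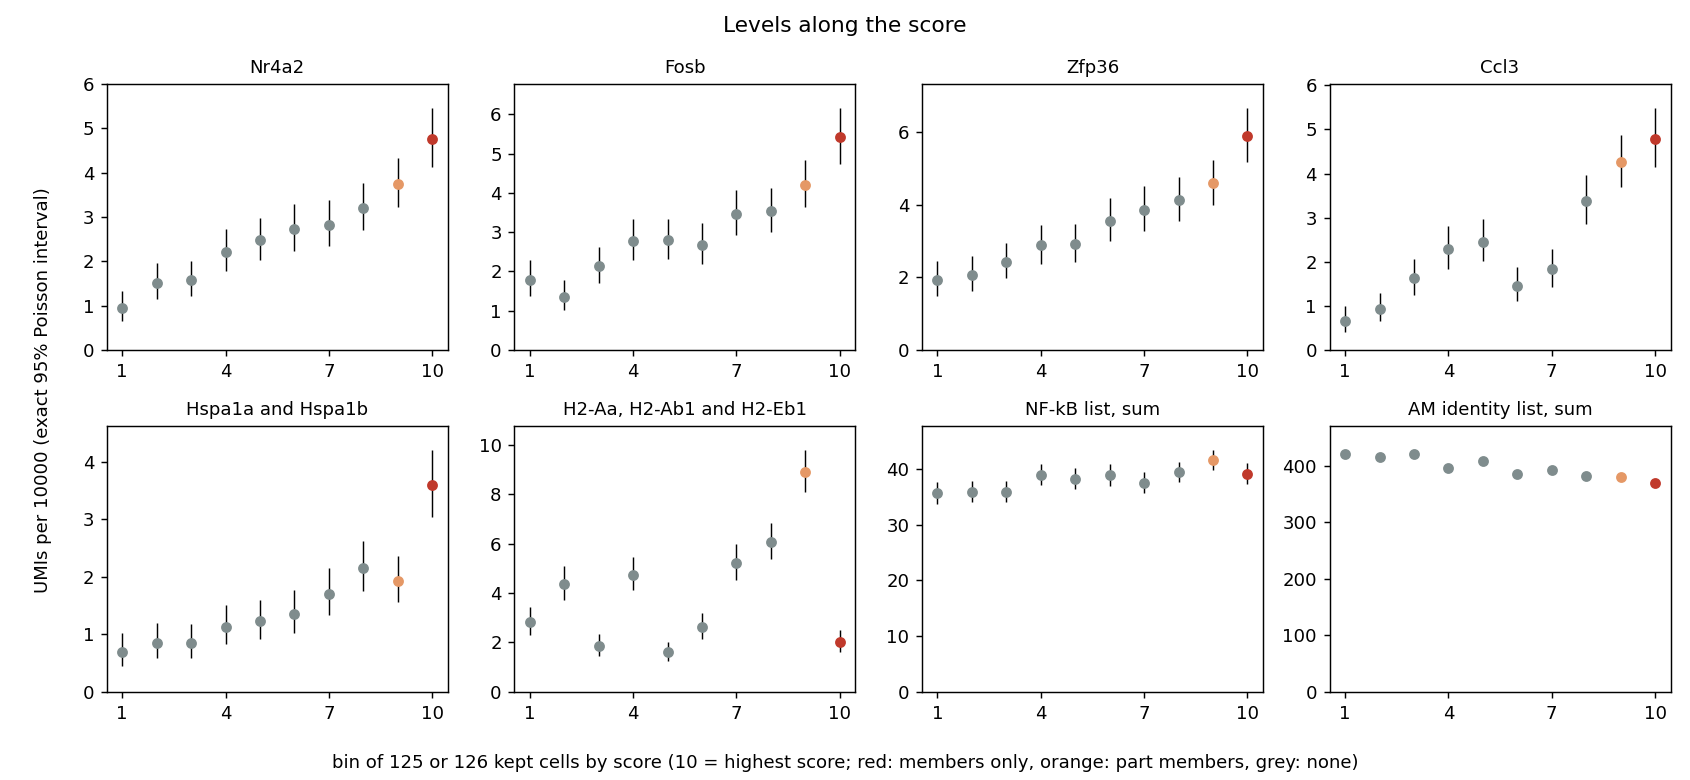
Level (UMIs per 10000, with exact 95% Poisson intervals) of single genes or summed lists in 10 bins of 125 or 126 kept cells ordered by score, 10 being the highest. Red points are IE-high AMs only, the orange point holds 74 IE-high AMs among 126 cells, and grey points hold none. Nr4a2, Fosb and Zfp36 climb along the score, whereas the MHC class II genes have no steady trend and the summed NF-kB list varies little. The summed AM identity list declines, from 421 in the bin of lowest score to 369 in that of highest score.

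Cytokine and chemokine genes outside the rule split. Of 10 measured, 3 were at least 1.5-fold higher and 7 had a ratio above 1. Ccl3 had 358 UMIs in IE-high AMs, or 5.09 per 10000, against 1.92 in the other kept cells (2.65-fold, 2.33-3.02), and at equal depth it was detected in 42.8% and 24.0% of cells. The cell with the most Ccl3 held 22 UMIs among IE-high AMs and 16 among the others, and the ratio was 2.51 without the first and 2.71 without the second. Cxcl2 stood at 8.14 and 4.40 (1.85-fold, 1.68-2.04), but at equal depth the shares of cells with a UMI were 49.7% and 45.3%. Its 10 highest IE-high AMs held 220 of the 572 UMIs of the group, and without these 10 cells the level was 5.27 per 10000, against 3.81 in the other kept cells without their own 10 highest. Osm (oncostatin M, an IL-6 family cytokine) was 1.67-fold higher (1.44-1.92).

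Il1b stood at 1.30-fold (1.06-1.59) and Ccl4, which is often induced with Ccl3, at 1.25-fold (0.974-1.58). Ccl6 and Il18, which AMs hold at high levels, were at 0.947-fold and 0.968-fold. None of 12 measured NF-kB subunits, inhibitors and targets was past 1.5-fold (median log2 ratio 0.05), and Nfkbia, the inhibitor that NF-kB itself induces, was at 2.33 UMIs per 10000 in IE-high AMs and 2.63 in the other kept cells (0.887-fold, 0.746-1.05). Both groups were chosen to lack UMIs of 4 genes that NF-kB induces, so the levels of this list are not independent of the rule. When 200 cells were chosen by the score from all 2055 cells, Nfkbia was at 3.21-fold and the median log2 ratio of the list was 0.39.

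In the heat shock list 2 of 10 measured genes were past 1.5-fold, and they were, with Ccl3, the genes of highest ratio. Hspa1a and Hspa1b encode the inducible HSP70 chaperone from neighbouring genes on chromosome 17. Their upstream sequences are shown with that of Btg2, since the genes stood among the highest ratios and these windows hold a searched motif (200 bases before the RefSeq start on GRCm38.p6, minus strand, 5′ to 3′, outside annotated exons, with capitals for the motif). The first lies at chr17:34972157-34972356, the second at chr17:34959239-34959438 and the third at chr1:134079156-134079355. The window of Prdm1 met the same terms and is not shown.
Hspa1a: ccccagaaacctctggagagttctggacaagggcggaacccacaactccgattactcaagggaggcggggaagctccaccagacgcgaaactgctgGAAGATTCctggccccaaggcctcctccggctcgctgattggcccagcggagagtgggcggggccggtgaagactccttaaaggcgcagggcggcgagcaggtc
Hspa1b: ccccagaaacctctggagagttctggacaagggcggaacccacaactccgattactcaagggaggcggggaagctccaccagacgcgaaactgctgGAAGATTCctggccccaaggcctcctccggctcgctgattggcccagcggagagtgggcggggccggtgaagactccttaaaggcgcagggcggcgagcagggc
Btg2: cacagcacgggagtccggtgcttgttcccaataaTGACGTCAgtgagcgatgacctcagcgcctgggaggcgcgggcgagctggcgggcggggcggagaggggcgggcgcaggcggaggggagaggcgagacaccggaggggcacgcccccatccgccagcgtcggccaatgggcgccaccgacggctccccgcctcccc
The windows of Hspa1a and Hspa1b are identical at 199 of 200 bases and hold the heat shock motif GAANNTTC starting 104 bases upstream. The window of Btg2 holds the cyclic AMP response element TGACGTCA starting 166 bases upstream. On both strands, GAANNTTC occurs in 5.36% of 32851 promoter windows and in 3 of the 14 matched genes with the highest ratios, the third being Prdm1. A gene was counted if any of its windows matched, so shares of genes and of windows are in unlike units. Hspa1a and Hspa1b, with nearly the same window, are not separate matches. GAANNTTC was searched after a longer form, with a further GAA 2 bases downstream, had matched none of the 14 (0.371% of all windows). TGACGTCA occurs in 1.47% of windows and, of the 14, in Btg2 only, the AP-1 motif TGANTCA in 5.48% and in Prdm1 only, and the CArG box of the serum response factor in 1.18% and in Zfp36 only. The motifs were not limited to genes of high ratio, since GAANNTTC also starts 18 bases upstream of S100a6 and 58 upstream of H2-Aa, and TGACGTCA 74 upstream of H2-Aa, all of which are among the lowest ratios. A match describes the letters and is no evidence of binding.

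Hspa1a had 94 UMIs in IE-high AMs, or 1.34 per 10000, against 0.502 (2.67-fold, 2.05-3.45), and Hspa1b 133 UMIs, or 1.89 against 0.748 (2.53-fold, 2.04-3.13). A UMI of either was found in 85 IE-high AMs (42.5%, interval 35.6-49.7%) and in 257 other kept cells (24.3%, 21.8-27.0%). No 98-base sequence in the last 300 bases of their transcripts is shared with another gene, so exact reads of this length from that stretch tell the pair apart. Reads from further upstream in the transcripts were not examined. The other chaperones did not follow: Hsp90aa1 was at 1.17-fold (1.05-1.30), Hspa8 at 1.06-fold (0.993-1.13) and Dnajb1, a co-chaperone of HSP70, at 0.855-fold (0.576-1.24). Hspa8 shares 63.6% and Hsp90aa1 23.7% of the corresponding sequences with other annotated genes, so their counts are less certain. None of 11 genes of the unfolded protein and amino acid response was past 1.5-fold, and of 10 oxidative stress genes the highest ratio was that of Hmox1, heme oxygenase, at 14.9 and 10.7 UMIs per 10000 (1.39-fold, 1.30-1.49). Ccl3 and either of the HSP70 genes occurred in the same cell in 45 IE-high AMs (22.5%) and in 96 other kept cells (9.08%). Each was also more frequent on its own, with Ccl3 in 53.0% and 30.75% of cells and an HSP70 gene in 42.5% and 24.3%. The joint share therefore does not by itself show a link between them.

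The remaining genes with the highest ratios had fewer UMIs. Midn (midnolin, which delivers nuclear proteins to the proteasome) had 79 UMIs in IE-high AMs and stood at 1.12 and 0.461 per 10000 (2.44-fold, 1.84-3.21). Hcar2, the receptor for niacin and beta-hydroxybutyrate, was 1.80-fold higher (1.39-2.31), Gdf15, a stress-induced cytokine of the TGF-beta family, 1.77-fold (1.39-2.23), Prdm1 (the repressor Blimp-1) 1.75-fold (1.37-2.21), and Msl1, a scaffold of a histone acetyltransferase complex, 1.72-fold (1.31-2.24). When cells were chosen on part of their UMIs and levels taken from the rest, Hcar2 was at 1.08-fold. Neat1, the RNA scaffold of nuclear paraspeckles, was at 1.63-fold (1.43-1.86), whereas Malat1, the other abundant nuclear RNA, was at 1.02-fold. Of the measured genes, none of 6 of sterol synthesis and uptake (of 15 listed), 3 of the cell cycle (of 20) and 12 of the mitochondrial genome (of 13) was past 1.5-fold in either direction. The sterol genes still leaned higher, with 5 of 6 ratios above 1, a median log2 ratio of 0.32 and a highest ratio of 1.49. Summed, the 15 listed were at 1.17-fold (1.07-1.28). The median log2 ratio was 0.03 for the cell cycle and -0.03 for the mitochondrial genes.

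The genes with low ratios did not form a like group. Jchain, the joining chain of antibodies, had the lowest ratio, 0.0354, but a single other kept cell held 940 of the 969 UMIs of its group, and without that cell the ratio was 1.18. The MHC class II genes H2-Eb1, H2-Aa and H2-Ab1 were next or near it at 0.396-fold (0.250-0.601), 0.437-fold (0.326-0.577) and 0.548-fold (0.424-0.700). This was not a lower share of cells with these genes, since a UMI of any of them was found in 54 of 200 IE-high AMs (27.0%, 21.0-33.7%) and 288 of 1057 other kept cells (27.2%, 24.6-30.0%), and at least 3 UMIs in 9.50% and 9.27%. The highest IE-high AM held 13 UMIs of the 3 genes, and the highest other kept cell 331. The 10 highest other kept cells held 54.6% of the UMIs of their group, and that with 331 UMIs ranked 246th by score. Summed over the 3 genes the ratio was 0.48, and 0.60 without the cell with 331 UMIs. Without the 10 highest cells of each group, the level was 1.13 in IE-high AMs and 2.08 in the other kept cells. With 400 cells in place of 200, H2-Eb1 was at a ratio of 1.74, H2-Aa of 1.51 and H2-Ab1 of 1.77. That choice takes in the cell with 331 UMIs, and 2 of the 10 highest other kept cells ranked within 400. With cells of at most 5% mitochondrial UMIs the ratios were 1.94, 1.55 and 1.86. The direction therefore changed under these settings, and whether single cells account for this was not tested.

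Among the other low ratios, S100a6, a calcium-binding protein, had 26 UMIs in IE-high AMs (0.496-fold, 0.318-0.744), Crip1, a LIM domain protein, 205 UMIs (0.576-fold, 0.496-0.666), and Ncstn (nicastrin, of gamma-secretase) 25 UMIs (0.536-fold, 0.339-0.811). Rnaset2b was at 0.496-fold and shares 62.8% of its 3' sequences with Rnaset2a and other genes. A930007I19Rik, an antisense transcript, was at 0.576-fold.

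The 798 cells with a UMI of Tnf, Cxcl1, Cxcl3 or Il1a, which the rule left out, were used to look at the same genes in cells that took no part in the choice. Of these, 237 had a score at least that of the lowest IE-high AM and 561 a lower score, with a median depth of 3924 and 3534 UMIs. At least 1.5-fold higher at high score were 36 genes (1.26%) and at least 1.5-fold lower 19 (0.663%). All of the 15 genes with the highest ratios had a ratio above 1 in these cells too, as did 42 of the 52 (80.8%) and 1330 of all 2867 genes (46.4%), and 13 of the 52 genes past 1.5-fold in the kept cells (25.0%) were past it here (36.1% of the 36). Nr4a2 was 1.45-fold higher (1.27-1.66), Fosb 1.46-fold (1.28-1.66), Zfp36 2.01-fold (1.81-2.22), Btg2 2.04-fold (1.84-2.26), Hspa1a 2.02-fold (1.55-2.63) and Ccl3 1.81-fold (1.61-2.04). Hcar2 was at 1.10-fold (0.830-1.46) and Prdm1 at 1.08-fold (0.854-1.35). Of the 30 genes past 1.5-fold lower, 1 was past it here (3.33%, and 5.26% of the 19), and 22 (73.3%) had a ratio below 1, against 53.6% of all genes.

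Set side by side with these 237 cells, IE-high AMs differed by no more than counting error in Nr4a2 (4.24 and 3.68 UMIs per 10000, ratio 1.15, 95% interval 0.984-1.35), Osm (3.73 and 3.75, ratio 0.993, 0.844-1.17) and Ccl3 (5.09 and 5.33, ratio 0.956, 0.833-1.10). They had higher levels of Midn (1.12 and 0.661) and Nr4a3 (ratio 1.32, 1.08-1.60). Fosb stood at 4.84 (4.34-5.38) and 3.99 (3.60-4.40), so its level leaned higher in IE-high AMs and the level intervals overlapped only from 4.34 to 4.40. Egr2 stood at 2.67 and 2.98, with level intervals that overlapped more widely. Overlap of level intervals does not show that levels are equal. Some other immediate-early genes were lower in IE-high AMs than in the 237 cells, with Zfp36 at 5.35 and 7.52 (ratio 0.712, 0.627-0.807), Btg2 at 5.59 and 7.46 (0.750, 0.662-0.849) and Phlda1 at 4.05 and 9.04 (0.448, 0.391-0.513). Levels of genes that NF-kB induces were also lower, with Cxcl2 at 8.14 against 43.2 UMIs per 10000 (ratio 0.188, 0.172-0.206), Nfkbia at 2.33 against 10.1 (0.230, 0.194-0.272), Nfkbiz at 0.597 against 3.19, Tnfaip3 at 1.12 against 3.27 and Ier3 at 1.02 against 2.37. The absence or presence of Tnf, Cxcl1, Cxcl3 or Il1a separates the groups by the rule, and genes that are induced with them are tied to it.

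**Figure D4:**
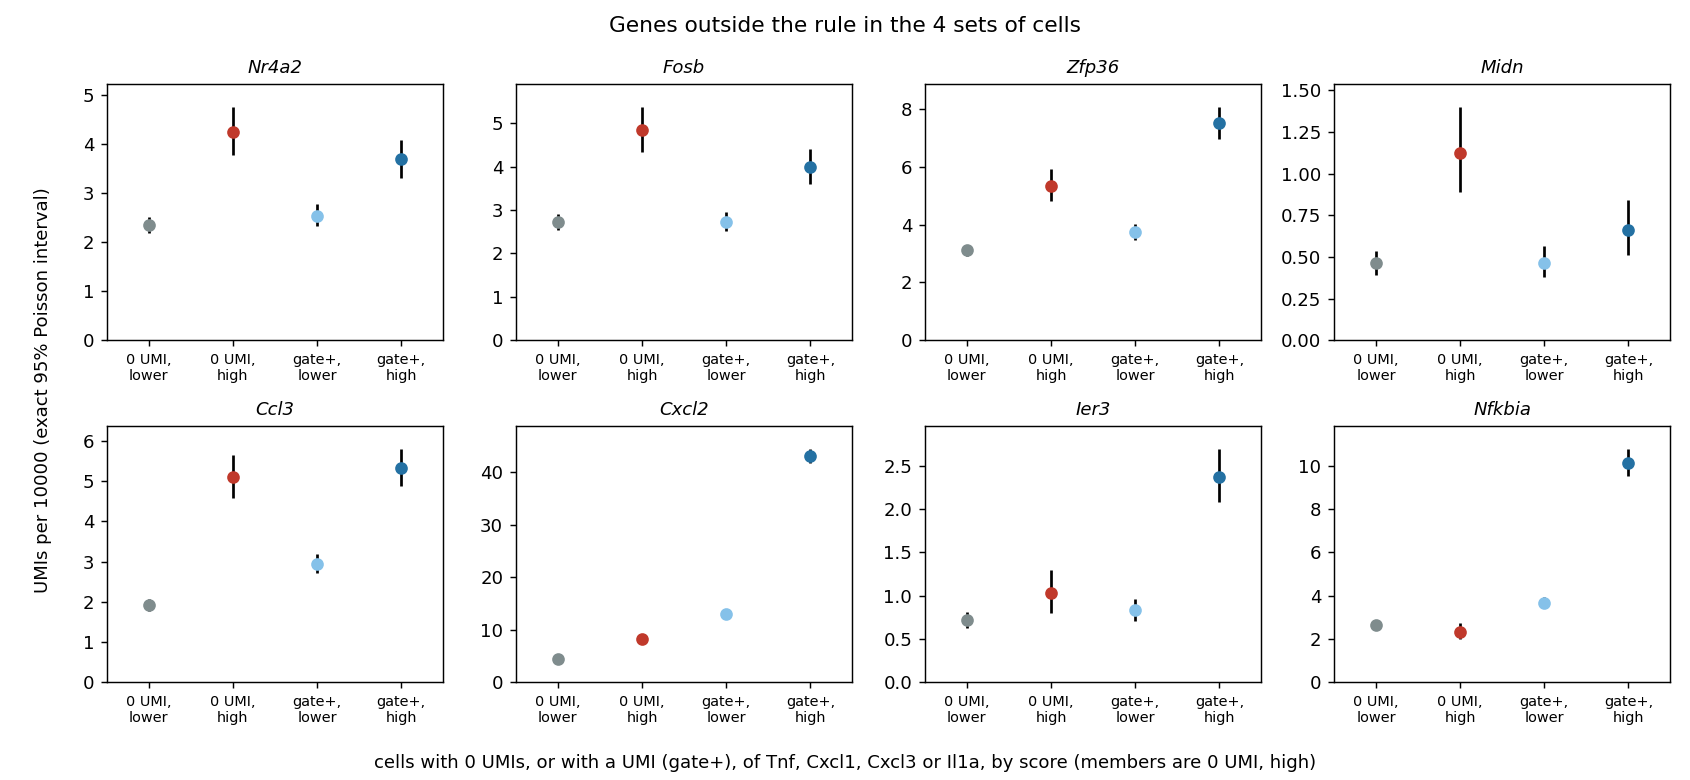
Level (UMIs per 10000, with exact 95% Poisson intervals) of 8 genes outside the rule in the other kept cells (grey, n = 1057), IE-high AMs (red, n = 200), and cells with a UMI of Tnf, Cxcl1, Cxcl3 or Il1a of lower score (light blue, n = 561) and high score (blue, n = 237). Nr4a2, Fosb and Ccl3 were higher at high score on either side, whereas Cxcl2, Ier3 and Nfkbia were far higher in the 237 cells than in IE-high AMs.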

How the data were processed

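Per the labels and the methods of the study, the authors counted UMIs with Cell Ranger 2.1 on mm10, removed cells under 300 or over 2500 genes (the latter their treatment of doublets) and cells over 5% mitochondrial UMIs, and removed ribosomal protein genes, Xist, Y-linked genes, Hbb and genes in fewer than 3 cells. In the deposited values 384 of 2055 cells exceed 5%, and all cells were used. The authors deposited the natural log of 1 plus UMIs per 10000 (Seurat), and a scaled score after regression on depth and mitochondrial content, used here only to rank cells in an alternative. No doublet caller was run. The knockout library was not analysed here.

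UMI counts were recovered from the steps between values within a cell (100% of 3052476 non-zero values whole within 0.01 UMI, 7222978 UMIs, 1143 to 8603 per cell). Levels are UMIs summed over a group per 10000 UMIs of that group. Intervals are exact (conditional binomial for ratios, Clopper-Pearson for shares, Poisson for levels). Genes with at least 200 UMIs in kept cells, outside the 12 genes of the rule, were compared, and the genes of the lists and the 15 highest and 10 lowest ratios were named, except 1 of the lowest, which is not reported here. The genes followed in bins or in the 798 cells left out by the rule were chosen after their values were seen, as were the promoters shown, their motifs and their window. The members and gene lists were chosen with earlier results of these data known. Positions came from GENCODE M21 and promoters from RefSeq (GRCm38.p6). Python 3.11.15, numpy 2.4.6, scipy 1.17.1 and pandas 2.3.3 were used, and the steps were tested on simulated data.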

Additional observations from a re-analysis of the deposited data

How the results depend on the processing

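No paired analysis was possible because there is 1 library. Against 52 genes at least 1.5-fold higher and 30 lower, the counts were 33 and 6 with 400 members, 83 and 114 over all cells (76 members in common), 31 and 16 with at most 5% mitochondrial UMIs, 99 and 100 after thinning to 2000 UMIs, 110 and 105 within the quartiles of the members' depth, 317 and 394 with a minimum of 50 UMIs per gene, 19 and 7 with 500, 4 and 6 with a fold of 2, and 85 and 84 with members chosen on a random part of the UMIs. Lower genes numbered 105 with 100 members (100 in common), 48 with a score in UMIs per 10000 and 63 without each gene's top member, an alternative added after seeing the data. At a fold of 2 none (0) of the 13 immediate-early genes remained. Hspa1a, Ccl3, Hspa1b, Midn, Cxcl2, Nr4a2, Fosb, Plk3, Zfp36 and Trib1 stayed at least 1.5-fold higher in each of the 15 or 16 alternatives that measured them. Among these, the minimum of 50 or 500 UMIs and the fold of 2 changed neither the cells nor the levels. A gene's ratio could not move under those settings.

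The median log2 ratio of the MHC class II genes reversed to 0.66 with 400 members (H2-Eb1 1.74, H2-Aa 1.51, H2-Ab1 1.77, and Rnaset2b 1.04), 0.66 with at most 5% mitochondrial UMIs (1.94, 1.55 and 1.86) and 0.59 with members chosen on part of the UMIs (1.74, 1.55 and 1.96, and Ncstn 1.00). Over all cells A930007I19Rik was at 1.13 and Mafk at 0.995, and Nfkbia, at 0.887 in the main comparison, at 3.21. Ier3 ranged from 0.95 with members chosen on part of the UMIs to 2.86 over all cells. Without the other kept cell with the most UMIs, an alternative added after seeing the data, Jchain was at 1.18 and the median log2 ratio of B and plasma cell markers at 0.24. Of the UMIs of the 3 MHC class II genes in other kept cells, 10 cells held 54.6%, and of those of Jchain 1 cell held 940 of 969. The cause of the changes other than that of Jchain was not tested. Genes with few UMIs have wide intervals.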
